A study of Homo sapiens with 6 samples.

Results

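The fatty acid elongases ELOVL1 to ELOVL7 and the FADS desaturases FADS1, FADS2 and FADS3 are 10 genes, taken by name from the 45019 rows of each deposited table. They were followed in MDA-MB-468, an established human breast cancer line of the basal type that is classed as lacking hormone receptors and ERBB2 and carries extra copies of EGFR, grown in medium with serum. One group was exposed for 10 days to 100 µM DETA/NO, from which nitric oxide is set free gradually. Cells of this group were collected and replated every 48 h and left 4 h to adhere before the compound was added again, with dishes pooled within a replicate. The other group was untreated, and no vehicle is named. The series asks whether nitric oxide, which the submitters describe as inhibiting FTO, an eraser of RNA methylation, is accompanied by altered transcription in this 1 cell line. Each group had 3 labelled samples of total RNA, but every row had the same value in the tables of replicates 1 and 2 of DETA/NO. They were counted as 1 library, named here DETA/NO library 1 and 2, so that 2 DETA/NO libraries were set against 3 untreated libraries. Separate cultures for the replicates are not stated in the labels, so p-values rest on the spread of these 5 libraries, which may be technical.

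The elongases sit in the endoplasmic reticulum membrane and catalyse the first, condensing step of a cycle that lengthens fatty acids made in the cytosol or taken from the diet. A reductase, a dehydratase and a second reductase complete each turn, and all elongases share them. The members differ in substrate: some prefer saturated and monounsaturated chains, others polyunsaturated ones. The FADS desaturases insert double bonds using electrons from cytochrome b5, and FADS1 and FADS2 alternate with the elongases on the route to arachidonic and docosahexaenoic acid. Several of these genes, ELOVL6 and FADS2 among them, are textbook targets of the lipogenic transcription factor SREBP1.

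The genes were chosen by their measured difference between DETA/NO and untreated cells: ELOVL6 was higher while most other lipid genes were lower, and its family was taken with it. Their differences between the groups are therefore given as a description, with no p-value. Adjusted p-values printed below for other lipid genes come from the same contrast. Lower lipid genes were part of the choice, so these values are no independent test of that fall. Of the 10 genes, 9 passed the filter of a mean of at least 10 normalized counts over the libraries. FADS1 did not, and ELOVL3 lay just inside it. In the limma fit over all 16409 genes that passed, ELOVL6, FADS3, ELOVL4 and ELOVL7 were higher with an adjusted p under 0.05 and ELOVL5, ELOVL1 and FADS2 lower, which makes 7 of 9, where 43.4% of all genes tested passed (21.7% higher and 21.7% lower). As these are the values that chose the genes, nothing is read from that share. ELOVL2 and ELOVL3 did not pass. Without any overlap between the groups, 5 genes were higher in DETA/NO cells and 3 lower, where 30.4% and 30.8% of all genes tested were so. "Rose" and "fell" are used only of genes that passed.

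The promoters of the 3 genes with the largest rises and of 2 that fell are shown, since members moving in opposite directions invite a look at their start sites. Each is the RefSeq window of GRCh38.p14 from 250 bases before to 50 bases after the gene's start, read 5′ to 3′ on the gene's strand. Capitals mark every match, on either strand, to the sterol response element TCACNCCAC, the NF-Y box CCAAT, the GC box GGGCGG, the E-box CACGTG or the DR4 element (AGGTCA, any 4 bases, AGGTCA), and matches that touch or overlap form 1 run of capitals.
ELOVL6 (chr4:110198566-110198865, minus strand): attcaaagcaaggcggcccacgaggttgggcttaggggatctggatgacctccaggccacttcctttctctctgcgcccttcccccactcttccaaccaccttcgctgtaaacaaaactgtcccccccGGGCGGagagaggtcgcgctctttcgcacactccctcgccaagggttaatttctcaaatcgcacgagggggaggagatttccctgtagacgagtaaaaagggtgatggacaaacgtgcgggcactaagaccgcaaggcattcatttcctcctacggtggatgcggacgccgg
FADS3 (chr11:61891496-61891795, minus strand): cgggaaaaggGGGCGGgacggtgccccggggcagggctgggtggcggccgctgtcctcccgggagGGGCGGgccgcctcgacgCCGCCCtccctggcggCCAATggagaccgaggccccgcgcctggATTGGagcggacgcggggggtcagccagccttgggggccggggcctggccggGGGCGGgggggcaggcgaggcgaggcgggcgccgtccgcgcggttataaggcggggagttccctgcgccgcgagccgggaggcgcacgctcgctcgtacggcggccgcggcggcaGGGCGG
ELOVL4 (chr6:79947504-79947803, minus strand): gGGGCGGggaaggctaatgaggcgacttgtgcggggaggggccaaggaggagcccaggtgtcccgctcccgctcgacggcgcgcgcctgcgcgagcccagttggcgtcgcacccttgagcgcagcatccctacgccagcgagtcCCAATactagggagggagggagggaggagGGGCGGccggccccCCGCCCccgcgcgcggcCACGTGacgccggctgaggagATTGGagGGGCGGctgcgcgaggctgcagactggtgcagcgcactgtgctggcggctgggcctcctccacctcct
ELOVL5 (chr6:53348901-53349200, minus strand): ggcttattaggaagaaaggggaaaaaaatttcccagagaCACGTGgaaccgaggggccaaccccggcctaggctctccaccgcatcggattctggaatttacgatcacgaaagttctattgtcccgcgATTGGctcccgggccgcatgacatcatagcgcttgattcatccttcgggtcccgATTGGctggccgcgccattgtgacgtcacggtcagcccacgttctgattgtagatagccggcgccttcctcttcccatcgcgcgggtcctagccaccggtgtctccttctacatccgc
FADS2 (chr11:61816154-61816453, plus strand): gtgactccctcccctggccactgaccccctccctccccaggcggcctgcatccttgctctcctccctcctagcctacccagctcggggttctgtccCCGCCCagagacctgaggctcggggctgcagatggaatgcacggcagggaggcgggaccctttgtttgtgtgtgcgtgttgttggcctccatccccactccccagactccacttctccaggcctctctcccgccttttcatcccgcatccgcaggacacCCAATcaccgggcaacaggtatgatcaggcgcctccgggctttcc

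All 10 genes matched the RefSeq table, FADS2 with 2 windows. The FADS2 window shown is that with matches, and the other (chr11:61815953-61816252) held none of the motifs. No window of the 10 genes held TCACNCCAC, which was found in 1.13% of the 35116 promoters, or the DR4 element, found in 0.0199%. GGGCGG, found in 45.0% of promoters, occurred once in the ELOVL6 window, 5 times in that of FADS3, 4 times in those of ELOVL4 and ELOVL7, 5 times in that of ELOVL1 and not at all in that of ELOVL5. CCAAT, found in 34.6% of promoters, was present in the windows of 2 risers, FADS3 and ELOVL4, and in at least 1 window of each of the 3 genes that fell. It was absent from those of ELOVL6 and ELOVL7. The E-box CACGTG, in 7.26% of promoters, was found in ELOVL4, which rose, and in ELOVL5, which fell. A match is no more than these letters in these 300 bases.

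Among the elongases that act on saturated and monounsaturated chains, ELOVL6, ELOVL7 and ELOVL1 changed and ELOVL3 did not pass. ELOVL6, which turns palmitate into stearate and palmitoleate into vaccenate, had 586 and 602 normalized counts in the DETA/NO libraries, against 219.8, 247 and 243 in the untreated libraries. The lower DETA/NO library thus stood more than the whole untreated level above the highest untreated library. The mean was 594 ± 11.2 (SD, n = 2) in DETA/NO cells and 237 ± 14.8 (SD, n = 3) in untreated cells, 2.51-fold higher (log2 fold change 1.33 ± 0.086, SE). ELOVL6 lies on chromosome 4 at 110045846 to 110199199 (GRCh38, minus strand). Between 230 and 634 reads per library stood behind these values. In bulk RNA a change per cell and a change in the cells present cannot be told apart, here and for all other genes.

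ELOVL7, an elongase of long saturated chains, had 618 and 674 normalized counts in the DETA/NO libraries, against 547, 516.0 and 519 in the untreated libraries. The groups did not overlap, and the rise was 1.23-fold (log2 fold change 0.29 ± 0.069). Its gene lies on chromosome 5 at 60751791 to 60844389 (GRCh38, minus strand). ELOVL1, which makes the very long saturated chains of sphingolipids, had 2193 and 2243 in the DETA/NO libraries, against 2276, 2433 and 2485 in the untreated libraries. ELOVL1 (chromosome 1, 43363397 to 43368074, minus strand) fell by 0.11 ± 0.042 on the log2 scale. That gap was narrow: the highest DETA/NO library and untreated library 1 differed by less than the spread among untreated libraries, and ELOVL1 no longer passed when either DETA/NO library or untreated library 2 or 3 was left out (log2 fold change -0.13 to -0.09). ELOVL3 (chromosome 10, 102226328 to 102229589, plus strand), known from skin and brown fat, was near the filter with 8.86 and 15.2 normalized counts in the DETA/NO libraries, against 11.5, 17.7 and 9.24 in the untreated libraries. Its groups overlapped over most of their range, and 8 to 18 reads per library cannot show a change of modest size.

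ELOVL4, which makes very long and ultra-long chains and is known from retina, skin and brain, had 769 and 748 normalized counts in the DETA/NO libraries, against 544, 515 and 502 in the untreated libraries. Every DETA/NO library lay above every untreated one by more than the range within either group. The rise was 1.46-fold (759 ± 14.7, n = 2, in DETA/NO cells and 520.2 ± 21.5, n = 3, in untreated cells, SD), a log2 fold change of 0.54 ± 0.067. The gene occupies 79914812 to 79947580 of chromosome 6 (GRCh38, minus strand).

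Of the elongases of polyunsaturated chains, ELOVL5 fell and ELOVL2 did not pass. ELOVL5 had 8816 and 9529 normalized counts in the DETA/NO libraries, against 10502, 10818 and 10520.0 in the untreated libraries. The DETA/NO libraries differed more from each other than the untreated libraries did, but both lay lower, and the log2 fold change was -0.21 ± 0.033. ELOVL5 held 0.864 times its untreated mean. Both genes lie on the minus strand of chromosome 6, ELOVL5 at 53267398 to 53349179 and ELOVL2 at 10980759 to 11044314. ELOVL2, which extends the longest polyunsaturated chains on the way to docosahexaenoic acid, had 386 and 376 in the DETA/NO libraries, against 335, 346 and 352 in the untreated libraries. Those groups did not overlap, as in 61.2% of all genes tested, yet the log2 fold change of 0.15 ± 0.082 did not pass.

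**Figure D1:**
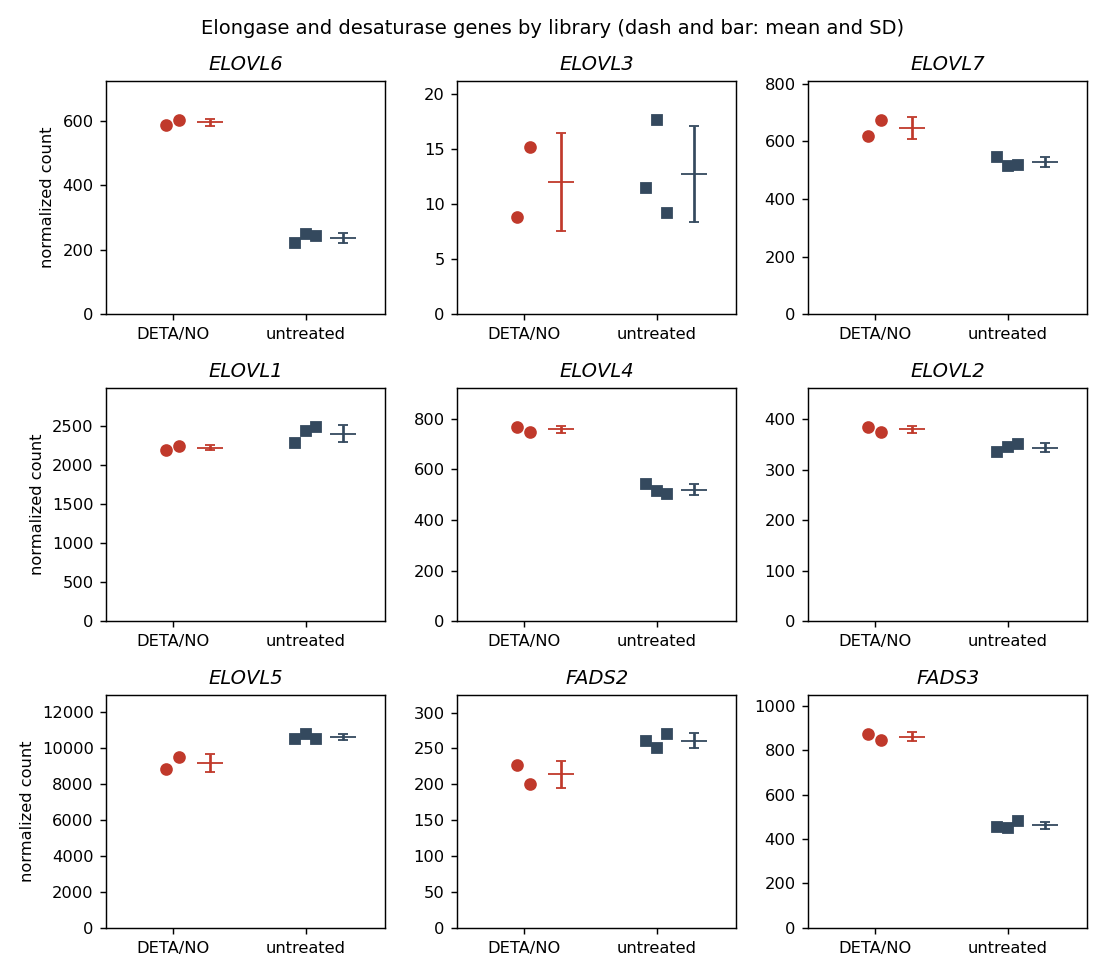
Normalized count of each gene on the vertical axis in the 2 DETA/NO libraries (circles) and the 3 untreated libraries (squares), with the group mean and SD beside the points. ELOVL6 at 586 and 602 against 219.8 to 247 and FADS3 at 875 and 846 against 450.3 to 481 stand furthest apart, while ELOVL3 overlaps.

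Of the desaturases, FADS3 rose, FADS2 fell, and FADS1 gave no value that can be read. FADS3 (chromosome 11, 61873519 to 61892051, minus strand), which desaturates sphingoid bases, had 875 and 846 normalized counts in the DETA/NO libraries, against 455, 450.3 and 481 in the untreated libraries. The groups were far apart, and the rise was 1.86-fold (861 ± 20.7, n = 2, in DETA/NO cells and 462 ± 16.3, n = 3, in untreated cells, SD), a log2 fold change of 0.90 ± 0.067. FADS2, the first desaturase of the polyunsaturated route, had 227 and 200.4 in the DETA/NO libraries, against 261, 250.2 and 271 in the untreated libraries. Both DETA/NO libraries lay lower, and the log2 fold change was -0.29 ± 0.10. FADS2 did not pass without DETA/NO library 3 (log2 fold change -0.20), nor without untreated library 1 (-0.29) or 3 (-0.26).

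FADS1, the desaturase that forms arachidonic acid, was listed at 0 in every library. In GENCODE release 29 the whole span of FADS1 (chromosome 11, 61799625 to 61829318, minus strand) lies inside that of FADS2 (61792980 to 61867354, plus strand). Of 1777 coding genes whose whole span other genes cover, 1730 (97.4%) were listed at 0 in every library, against 1600 of 17895 other coding genes (8.94%). The zero therefore cannot be taken as a level of FADS1. Other genes cover 45.7% of the FADS2 span, FADS1 covering 39.9% of it on the opposite strand, so that FADS2 reads are uncertain too. The annotation and strand setting used for counting are not given in the sources used here. Of the other 8 genes, none had more than 1.72% of its span covered.

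Along the FADS cluster the direction of the differences changed between FADS2 and FADS3, whose spans end 6165 bases apart. On the side of FADS2, TMEM258, a subunit of the oligosaccharyltransferase with 83.3% of its span covered by others, had 809 ± 16.8 (SD, n = 2) in DETA/NO cells and 936 ± 45.4 (SD, n = 3) in untreated cells (log2 fold change -0.21 ± 0.058, limma adjusted p = 0.00377). On the side of FADS3, RAB3IL1, an exchange factor for Rab GTPases, rose by 0.68 ± 0.109 (limma adjusted p = 5.88e-06). FTH1, the ferritin heavy chain, rose by 0.61 ± 0.049 (limma adjusted p = 4.67e-06), with 73.0% of its span covered. BEST1, a chloride channel gene between them that was named for its position, did not pass (0.74 ± 0.459), and MYRF and FEN1 were under the filter. FEN1, a DNA replication nuclease, held at most 2.22 normalized counts with 96.2% of its span covered.

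**Figure D2:**
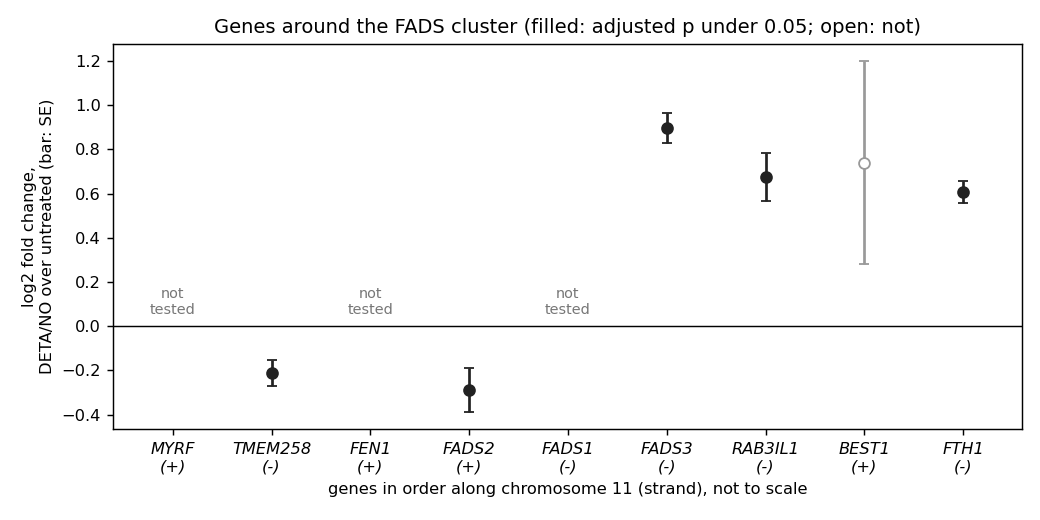
Log2 fold change, DETA/NO over untreated, with its SE (vertical axis) for the genes around the FADS cluster in their order along chromosome 11 (horizontal axis, not to scale). TMEM258 (-0.21) and FADS2 (-0.29) lie below 0, and FADS3 (0.90), RAB3IL1 (0.68) and FTH1 (0.61) above it. MYRF, FEN1 and FADS1 were not tested.

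Levels of the genes, which played no part in choosing them, were compared per kb of exons. In untreated cells ELOVL5 stood first with 2784 ± 46.6 normalized counts per kb (SD, n = 3). ELOVL1 followed with 956 ± 43.5, then ELOVL4 with 171 ± 7.06, ELOVL7 with 115 ± 3.67 and ELOVL2 with 86.1 ± 2.25. FADS3 had 73.5 ± 2.60, ELOVL6 32.4 ± 2.02, FADS2 23.6 ± 0.936 and ELOVL3 9.33 ± 3.18. No range over the 3 untreated libraries overlapped that of its neighbour in this order. With the longest transcript in place of all exons as the length, FADS3 moved above ELOVL2, with overlapping ranges, and FADS2 moved above ELOVL6. In DETA/NO cells the mean level per kb was 137 for FADS3 and 95.3 for ELOVL2, so that they changed places, and ELOVL6 stood at 81.4.

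**Figure D3:**
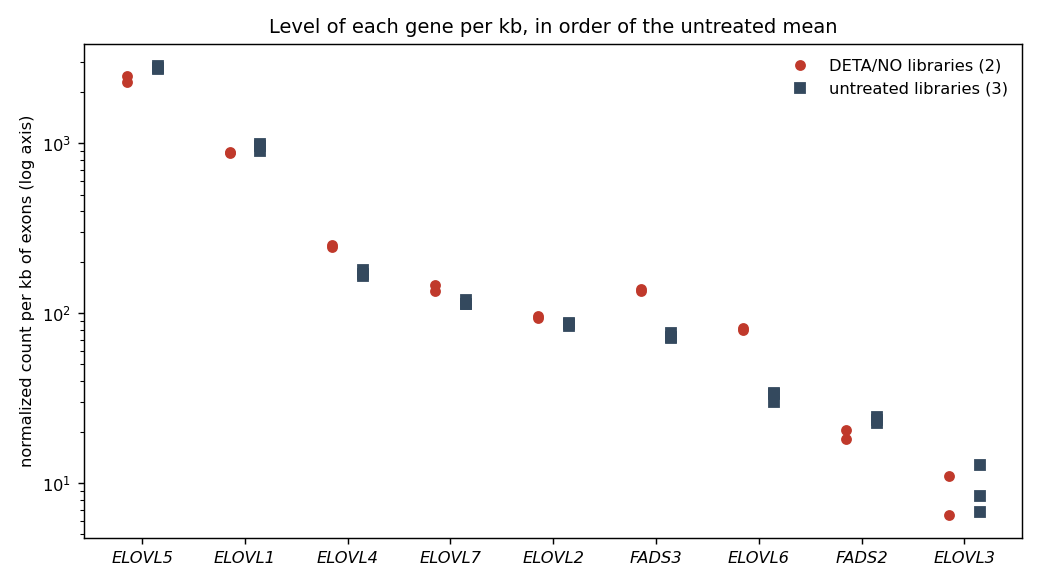
Normalized count per kb of exons on a log axis for each gene in each DETA/NO library (circles) and each untreated library (squares), in order of the untreated mean. ELOVL5 leads at 2784 in untreated cells, and ELOVL6 rises toward the levels of ELOVL2 and FADS3 in DETA/NO cells.

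Within a library, scaling between libraries cancels out. ELOVL5 held 61.5% and 62.9% of the summed elongase level per kb in the DETA/NO libraries, against 67.5%, 67.2% and 66.4% in the untreated libraries. ELOVL6 held 2.14% and 2.08% in the DETA/NO libraries, against 0.738%, 0.802% and 0.801% in the untreated libraries, and ELOVL4 6.73% and 6.19%, against 4.38%, 4.01% and 3.97%. ELOVL6 thus stayed a minor part of elongase RNA in both groups. Of the summed level of FADS2 and FADS3, FADS3 held 87.1% and 88.1% in the DETA/NO libraries, against 75.4%, 76.0% and 75.7% in the untreated libraries. The size of this share depends on the length used for FADS2, whose reads are uncertain. With the longest transcript, FADS3 and FADS2 had means of 162 and 42.1 per kb in DETA/NO cells, against 86.9 and 51.4 in untreated cells.

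Likeness in coding sequence and the differences already given are set side by side as a description. ELOVL1 and ELOVL7, with 60.1% of aligned coding bases identical, were lower and higher. FADS2 and FADS3, with 71.0% identical, were lower and higher too. For FADS1 and FADS2, with 67.8%, no comparison can be made. In the pairs ELOVL6 and ELOVL3 (57.5%) and ELOVL5 and ELOVL2 (62.5%) the second gene did not pass, and the difference between the pair's changes was not tested. Pairs of an elongase and a desaturase, which are unrelated, had 44.9% to 49.9%. All pairs within a family ran from 47.1% to 71.0%, so that the least alike of them lay inside that range. Read in the same direction, no pair of the 10 genes shared an exact stretch of more than 37 bases in any annotated transcript. Sequence shared on opposite strands was not searched, and 4.79% of FADS1 exon bases lie in FADS2 exons on the opposite strand.

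The enzymes that complete each elongation turn moved in both directions. Of 7 genes for them, 5 were tested: 1 rose and 2 fell, where 21.7% of all genes tested passed in each direction (median log2 fold change -0.21, against -0.00016 over all genes tested). Counts this small are not set apart from that share. TECR, the last reductase, had 4314 ± 127 in DETA/NO cells and 4976 ± 176 in untreated cells (log2 fold change -0.21 ± 0.036, limma adjusted p = 1.77e-05). The dehydratase HACD3 fell by 0.22 ± 0.037, and HACD1, a dehydratase known from muscle, rose by 0.33 ± 0.099 (limma adjusted p = 0.00820, and 0.0616 without DETA/NO library 1 and 2). The dehydratase HACD2 had 8402 ± 44.5 and 8480 ± 258 in the same order (limma adjusted p = 0.778), and HACD4 had 118 ± 16.1 and 140 ± 18.1 (limma adjusted p = 0.158). HSD17B12, the first reductase, was listed at 0 in every library with its whole span covered by other genes, as FADS1 was. Of 6 genes of the cytochrome b5 electron supply, 1 rose, the reductase CYB5R2 (log2 fold change 0.24 ± 0.071, limma adjusted p = 0.00571, and 0.0503 without DETA/NO library 3), and 0 fell. Without untreated library 3, 2 of them rose.

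The desaturases that act on saturated chains moved apart. SCD, the stearoyl-CoA desaturase that takes the product of ELOVL6, had 13568 and 15380.4 normalized counts in the DETA/NO libraries, against 34029, 36697 and 42708 in the untreated libraries. It fell to 0.383 times its untreated level (SE 0.136 on the log2 scale, limma adjusted p = 0.00488). SCD5, the second human stearoyl-CoA desaturase, had 2420.5 ± 14.8 in DETA/NO cells and 1845 ± 48.5 in untreated cells (log2 fold change 0.39 ± 0.042, limma adjusted p = 2.93e-09). SCD5 held 18.2% and 16.5% of the summed level of SCD and SCD5 per kb in the DETA/NO libraries, against 6.21%, 6.07% and 5.09% in the untreated libraries. For every 100 units of SCD per kb there were 3.17 and 2.88 of ELOVL6 in the DETA/NO libraries, against 0.475, 0.495 and 0.418 in the untreated libraries. FADS6 is not analysed here.

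Of 8 tested genes that supply malonyl-CoA and palmitate, the substrates of ELOVL6, 6 fell and 1 rose (median log2 fold change -0.20). Over all genes tested, 21.7% passed in each direction. As lower lipid genes were part of the choice, these counts are a description. FASN, the fatty acid synthase, had 14572 ± 1041 in DETA/NO cells and 26030 ± 2815 in untreated cells (log2 fold change -0.83 ± 0.121, limma adjusted p = 0.0140). The citrate carrier SLC25A1 fell by 0.30 ± 0.041, ACLY, the citrate lyase, by 0.19 ± 0.032, and ACACA, the acetyl-CoA carboxylase, by 0.15 ± 0.036. The gene that rose was MID1IP1, an activator of acetyl-CoA carboxylase, by 0.13 ± 0.050 (limma adjusted p = 0.0372). Of the SREBP, LXR, ChREBP and PPAR regulators, 5 of 15 fell and 3 rose (33.3% and 20.0%, against 21.7% each over all genes tested). SREBF1, which encodes SREBP1, had 1599 and 1699 in the DETA/NO libraries, against 2753, 2930.2 and 3674 in the untreated libraries (log2 fold change -0.91 ± 0.159, limma adjusted p = 0.0224). Its feedback partner INSIG1 fell by 0.82 ± 0.127, SREBF2 by 0.25 ± 0.033, and PPARG rose by 0.61 ± 0.053 (limma adjusted p = 5.54e-11). Without DETA/NO library 1 and 2 the adjusted p was 0.130 for SREBF1, 0.0891 for FASN, 0.0911 for INSIG1 and 0.0569 for ACACA. Without DETA/NO library 3 it was 0.106 for SREBF1, 0.0621 for FASN and 0.0582 for INSIG1. Without untreated library 2 it was 0.0747 for SREBF1, 0.0579 for FASN and 0.0558 for INSIG1. The number of regulators that fell was 1 without DETA/NO library 1 and 2, 2 without DETA/NO library 3, 3 without untreated library 1 and 2 without untreated library 2. MID1IP1 lost its call without DETA/NO library 1 and 2 (0.329) or untreated library 1 (0.139) or 2 (0.128), where 0 supply genes rose. With other ways of testing included, it was called in 9 of the 16 alternatives described below.

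**Figure D4:**
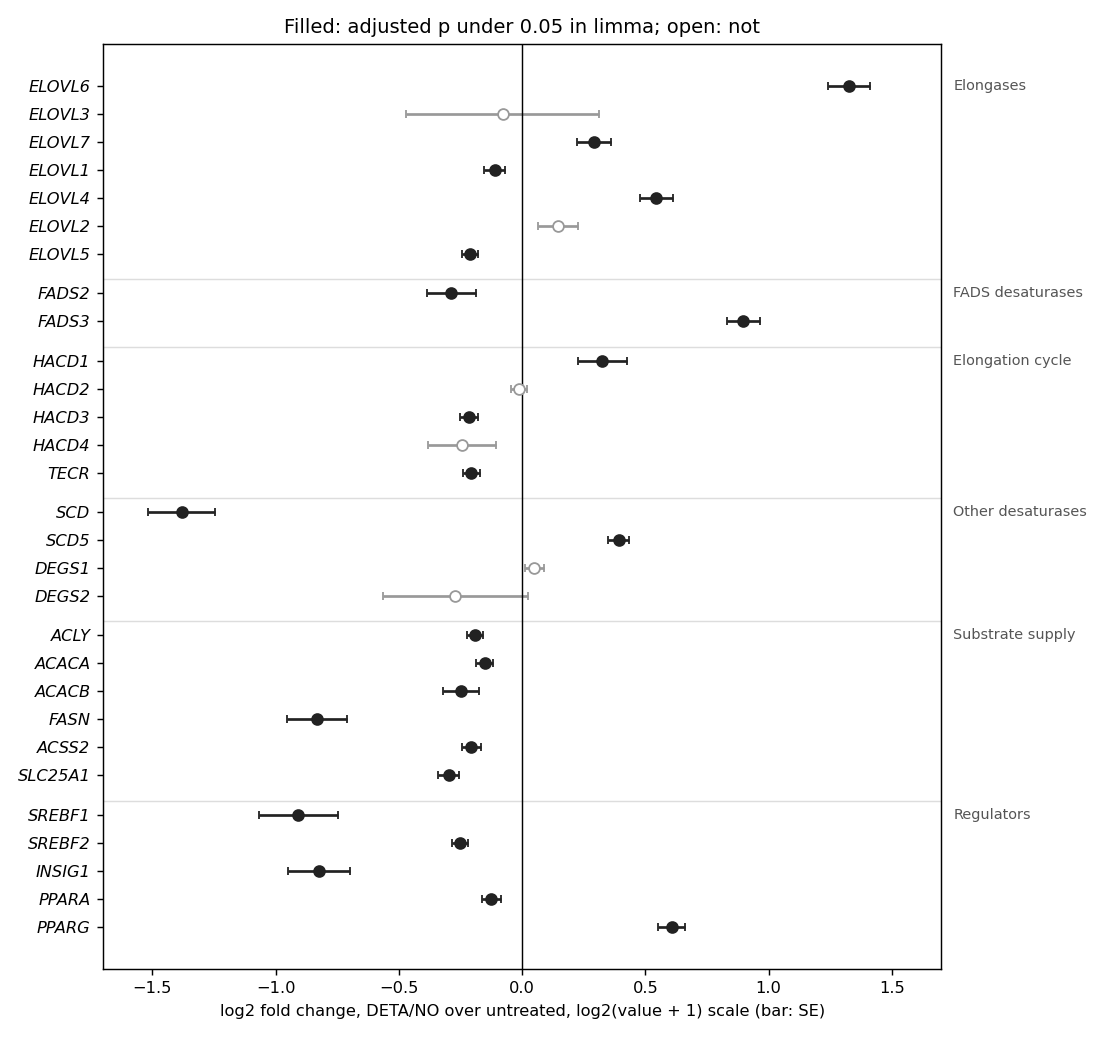
Log2 fold change, DETA/NO over untreated, with its SE (horizontal axis) for the elongases, the FADS desaturases and genes of the same pathway. ELOVL6 (1.33) and FADS3 (0.90) lie right of 0, and SCD, SREBF1 (-0.91) and FASN (-0.83) left of it.

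Over the 11 lists of the pathway, 76 of 95 genes were tested, 29 fell and 12 rose (38.2% and 15.8%, against 21.7% each over all genes tested). That most lipid genes were lower was part of how ELOVL6 and its family were chosen, so these shares, too, are a description and nothing is read from them. Without DETA/NO library 1 and 2, 24 genes in place of 41 passed. The median log2 fold change of the 9 tested elongases and desaturases was 0.15, and that of the 76 was -0.07.

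**Figure D5:**
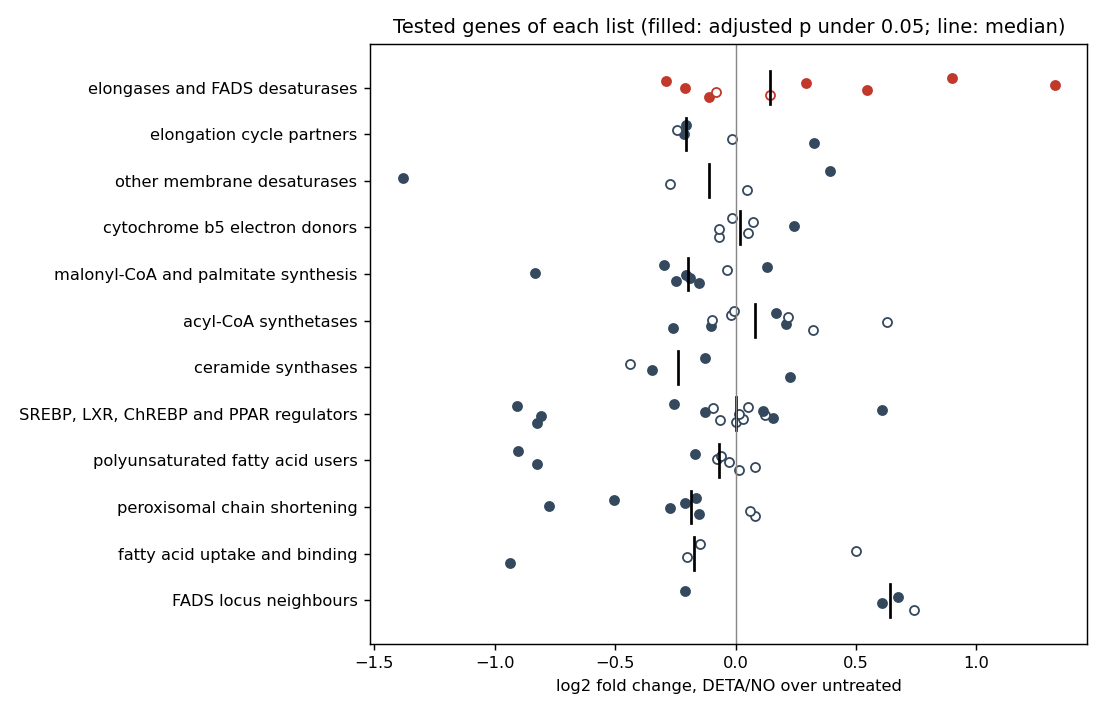
Log2 fold change, DETA/NO over untreated (horizontal axis), of each tested gene in each list, with the list's median as a line. The elongases and FADS desaturases run from -0.29 to 1.33, and the genes of malonyl-CoA and palmitate synthesis from -0.83 to 0.13.

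The genes most like ELOVL6 over the 5 libraries were GFPT2, CAV1, SEMA7A, ALPP and RASGRP3. Likeness was the root mean square difference of log2(value + 1), each gene taken relative to its untreated mean, among 11519 genes with a mean of at least 100. GFPT2, an enzyme of the hexosamine pathway, was nearest at 0.031 and had 256 and 267 normalized counts in the DETA/NO libraries, against 91.7, 107 and 104 in the untreated libraries. CAV1, the caveolar coat protein, followed at 0.074 with 7772 and 8058 in the DETA/NO libraries, against 3204, 3357 and 3017 in the untreated libraries. SEMA7A, ALPP and RASGRP3 lay at 0.077 to 0.082. Of the members FADS2 fell most on the log2 scale, and BAHCC1, ZBTB3 and FLOT1 were nearest to it at 0.012 to 0.025. With 5 libraries in 2 groups, such likeness reflects mostly the size of the difference between the groups.

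The line's own markers were present in all libraries: EGFR at 217563 to 247990 normalized counts, with KRT5, KRT17, KRT8, KRT18, EPCAM and CDH1 at 4239 or more and KRT14 at 709 to 731. PGR had at most 5.73, ESR1 had 823 to 1093 and ERBB2 had 1429 to 1981, so that RNA of both was present. Of markers of other cell types, DCN, LUM, COL1A2 and ADIPOQ had at most 1.91. FABP4 was at 0 in every library, but other genes cover its whole span, so that zero cannot be taken as a level. Other markers had more: PLIN1, of adipocytes, had 39.9 to 70.6 and KDR, of endothelium, 153 to 268 over all libraries. CDH5, also endothelial, had 144 and 202 in the DETA/NO libraries, against 72.6 to 75.8 in the untreated libraries. The summed fibroblast markers, of which COL1A1 made nearly all, were 840.4 to 850 in DETA/NO libraries and 578 to 635 in untreated libraries. The endothelial sum was 499 to 558 and 325 to 363, the immune sum, mostly CD14, 428 to 492 and 923 to 976, and the adipocyte sum 52.2 to 53.2 and 57.3 to 82.4, in the same order. PTPRC, the other immune marker tested, went the other way from CD14. It had 34.3 and 33.2 in the DETA/NO libraries, against 14.3, 8.83 and 16.6 in the untreated libraries. With 1 fibroblast, 4 endothelial, 2 immune and 1 adipocyte gene tested, 4 rose and 2 fell. Over all genes tested, 21.7% passed in each direction. The part of these markers in the results was not tested.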

How the data were processed

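Total RNA libraries of MDA-MB-468 cells were made with a KAPA RNA HyperPrep kit, per the labels' protocols. The deposited values are normalized read counts (a signal scaled by 1 factor per library) for 45019 rows. Tools named per the submitters' processing notes are DESeq2 1.38.3 in R 4.2.2, featureCounts 2.0.3 of Subread, TopHat2 2.1.1 with Bowtie2 2.5.0.0, deepTools 3.5.1 and, for read quality, MultiQC 1.14 and FastQC 0.11.9; the build was GRCh38. The sources used here do not give the annotation, strand setting or filters. Dividing by 1 factor per library turned 100% of values above 0 into whole reads (tolerance 0.01), which gave 28897422 to 34637343 recovered reads per library.

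Genes with a mean of at least 10 were tested with limma 3.58.1 (R 4.3.3, trend and robust options) on log2(value + 1), and a Benjamini-Hochberg adjusted p under 0.05 was called. A fold change on that scale understates the change of low genes. Alternatives were other pseudocounts, filters and scalings, limma without both options, edgeR 4.0.16 (7001 genes called) and DESeq2 1.42.0 (5342 called) on recovered reads, leaving out each library, and a replicate block. The numbers were not taken as pairs, because no label says that they mark a shared day. Deviations of same-numbered libraries from their group means correlated by 0.0301 at most. With 2 DETA/NO libraries, 1 of them of unknown number, that check cannot exclude pairing. The fit was also run on simulated data. Far fewer genes changed there than were called here, and none by a small fold, so that run cannot show how the fit treats small changes. Genes and lists were chosen with earlier results of these data known. Named list genes were up to 2 called genes in each direction with the largest change per list whose higher group averaged 100 or more, and a fixed set of pathway genes; MYRF and BEST1 (for their position) and CD36 were named outside this rule. Positions, exon lengths and overlaps came from GENCODE release 29, promoters from RefSeq (GRCh38.p14), and coding sequences were aligned with Biopython 1.88. Date-like strings replaced 27 row names in each table, which are not named here and make up 0.246% of the reads.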

Additional observations from a re-analysis of the deposited data

How the results depend on the processing

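Under the 16 alternatives to the test, ELOVL6, FADS3, ELOVL4, ELOVL7 and ELOVL5 kept their direction and their call in each. Their log2 fold changes ran from 1.27 to 1.36, 0.87 to 0.93, 0.52 to 0.58, 0.23 to 0.35 and -0.27 to -0.16. ELOVL1 was called in 9 and FADS2 in 11 of the 16. The number of the 10 genes called lower was 3, and 1 in limma without the trend and robust options and in DESeq2. It was 2 with a replicate block that numbered the shared library 1. When each library was left out in turn it was 1 to 2, and the number called higher stayed at 4. Leaving out a library gave 5579 to 7077 genes called in place of 7120. ELOVL3, which was not called, had a log2 fold change of 0.16 with a replicate block that numbered the shared library 1 and without untreated library 2, and ran from -0.44 to 0.28 when each library was left out. HACD2 had 0.0097 with that block and ran from -0.0341 to 0.0097 when each library was left out. Genes called in the pathway lists numbered 41, and 25 in limma without both options and 24 to 41 with a library left out; the cause was not tested. With the longest transcript as length, untreated levels per kb were 1476 for ELOVL1, 3445 for ELOVL5, 36.7 for ELOVL6, 127 for ELOVL7, 51.4 for FADS2 and 86.9 for FADS3. A replicate block, which pairs libraries by number only, called 6605 genes, or 6321 with the shared library numbered 2. With a pseudocount of 5, 5 of the 5 genes nearest ELOVL6 stayed. Depth limits ELOVL3, with 8 to 18 reads per library.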

Other observations

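Of 8 tested genes that shorten very long chains in the peroxisome, 6 fell and 0 rose (median log2 fold change -0.19), where 21.7% of all genes tested passed in each direction. As lower lipid genes were part of how the elongases were chosen, the counts given here are a description. HSD17B4, the multifunctional enzyme that also completes docosahexaenoic acid, had 4523 ± 127 normalized counts in DETA/NO cells (SD, n = 2) and 6419 ± 53.8 in untreated cells (SD, n = 3), a log2 fold change of -0.51 ± 0.033 (limma adjusted p = 3.84e-14). Without DETA/NO library 1 and 2, 3 genes of this list fell. Of 8 tested genes that use polyunsaturated fatty acids, 3 fell and 0 rose. EPHX2, the soluble epoxide hydrolase, fell by 0.83 ± 0.151 and PTGES, a prostaglandin E synthase, by 0.17 ± 0.041 (limma adjusted p = 0.00135, and 0.0794 without DETA/NO library 1 and 2).

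Ceramide synthases, only some of which take up the very long chains made by ELOVL1, rose in 1 and fell in 2 of 4 tested genes. These are too few to set apart from the 21.7% of all genes in each direction. CERS2, the synthase of very-long-chain ceramides, had 2364 ± 63.6 in DETA/NO cells and 2019.7 ± 63.3 in untreated cells (log2 fold change 0.23 ± 0.042, limma adjusted p = 4.34e-05), with 48.9% of its span covered by other genes. CERS4 fell by 0.35 ± 0.064 and CERS6 by 0.13 ± 0.042 (limma adjusted p = 0.0149). CERS6 did not pass without DETA/NO library 1 and 2 (0.0822) or untreated library 2 (0.0696), where 1 gene fell. Acyl-CoA synthetases rose in 2 and fell in 2 of 10, near that share. ACSL4, which prefers arachidonic acid, rose by 0.21 ± 0.041 and SLC27A4 by 0.17 ± 0.053, and ACSL1 fell by 0.26 ± 0.036 and ACSL3 by 0.10 ± 0.031. These counts were 1 and 1 without DETA/NO library 1 and 2, with adjusted p of 0.137 for SLC27A4 and 0.113 for ACSL3. SLC27A4 had 0.0539 without untreated library 2. MLX, a partner of ChREBP, rose by 0.16 ± 0.051 (0.113 without DETA/NO library 1 and 2). Of 4 tested genes of fatty acid uptake and binding, 1 fell, the uptake receptor CD36, named after its values were seen, with 6.65 and 10.4 normalized counts in the DETA/NO libraries, against 18.2, 13.7 and 19.4 in the untreated libraries, and 0 fell without DETA/NO library 1 and 2 or untreated library 1 or 3.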
